A study of Mus musculus with 14 samples.

Results

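The genes described here are 10 members or relatives of the BMP, activin and Id families, Inhba, Inhbb, Bmp4, Gdf5, Fst, Fstl3, Fstl1, Id1, Id2 and Id3. They were taken by gene symbol out of the 23284 genes listed in each of 2 tables of RNA-seq data from the mouse mammary gland epithelial line EpH4 and its derivative EpRas, transformed with H-Ras (H-RasG12V). Fst and Gdf5 were chosen by their measured FPKM, Fst because it falls with TGF-β and Gdf5 because it is seen in EpH4 cells only, so those differences, and that of Fst between the lines, which shares the untreated libraries, are given as descriptions, without a test. One table holds untransfected cells in 4 groups of 2 libraries each, namely EpH4 cells in medium with 10% fetal bovine serum and EpRas cells in medium with 4%, each left untreated or treated with 1 ng/ml TGF-β3 for 48 h. The other holds EpRas cells that had received negative control siRNA (siNC) or 1 of 2 siRNA pairs directed at the ETS family transcription factor genes Etv4 and Etv5, each without and with the same TGF-β treatment, with 1 library per condition. The comparison of the lines holds the serum content as well as the transformation, and these cannot be told apart. The libraries of a group are described as biological replicates, and p-values measure the spread between them. Expression is given as FPKM, the fragments of a gene scaled to its exon length and to the library total, which is a level per length.

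BMPs and activins are secreted dimeric ligands of the TGF-β superfamily. Activins bind activin type II receptors and signal, like TGF-β, through Smad2 and Smad3, whereas BMPs and GDF5 signal through Smad1, Smad5 and Smad9. Follistatin and the follistatin-like protein encoded by Fstl3 bind activin outside the cell and block it. Id1, Id2 and Id3 are classical targets of BMP signalling, and their proteins lack a DNA-binding region and hold E proteins, the basic helix-loop-helix partners, off the DNA. In many epithelial cells TGF-β lowers Id gene expression. In the mammary epithelium Id1 is linked to proliferation and blocked differentiation, whereas Id2 is needed for the lobulo-alveolar development of pregnancy.

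Bmp4 and Id2, which were lower with TGF-β in both untransfected lines, and Inhba, which was higher in both, are the tested members that changed in both lines, and the stretches 5′ of their RefSeq start sites are shown for that reason. The RefSeq promoter table of GRCm38.p6, the assembly named mm10 in the labels, held 7 of the 10 members. Each stretch ends at the base before the RefSeq start of the gene, except that of Id2, which was cut to the 89 bases that no GENCODE exon covers. The Id2 stretch lies within the GENCODE span of the gene, downstream of the outermost GENCODE start at 25097140 and upstream of the model in the authors' table, which ends at 25096092. Capitals mark matches on either strand to any of 5 motifs, CAGAC of Smad3 and Smad4, GGCGCC of Smad1 and Smad5, the ETS core CCGGAA, the AP-1 site TGANTCA and the E-box CACGTG.
Bmp4 (chr14:46390670-46390919, minus strand): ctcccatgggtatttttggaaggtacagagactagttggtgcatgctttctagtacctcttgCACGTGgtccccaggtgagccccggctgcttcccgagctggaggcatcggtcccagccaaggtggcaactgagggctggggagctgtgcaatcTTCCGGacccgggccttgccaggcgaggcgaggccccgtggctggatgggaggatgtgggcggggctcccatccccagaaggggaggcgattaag
Inhba (chr13:16011601-16011850, plus strand): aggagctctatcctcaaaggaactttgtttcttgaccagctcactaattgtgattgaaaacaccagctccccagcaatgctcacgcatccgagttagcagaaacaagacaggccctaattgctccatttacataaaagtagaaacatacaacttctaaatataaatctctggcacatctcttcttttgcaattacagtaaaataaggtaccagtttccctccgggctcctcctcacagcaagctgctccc
Id2 (chr12:25096254-25096342, minus strand): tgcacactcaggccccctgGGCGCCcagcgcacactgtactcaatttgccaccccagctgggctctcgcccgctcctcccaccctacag

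The Bmp4 stretch held the ETS core once, printed as TTCCGG on the opposite strand and 95 to 90 bases before the start, and CACGTG 188 to 183 bases before it. The Id2 stretch held GGCGCC 231 to 226 bases before the start, and the Inhba stretch held 0 of the 5 motifs. Of 32536 promoters of 250 bases, 12.1% held CCGGAA, 6.04% CACGTG, 9.65% GGCGCC, 6.73% TGANTCA and 42.2% CAGAC, and no match overlapped another in the 3 stretches. Among the other members in the table, the 250 bases of Id3 and of Fstl3 each held 2 copies of CAGAC, and those of Inhbb and Fstl1 held none of the 5. Base composition differed as well, with 43.2% G and C in the Inhba stretch and 63.2% in that of Bmp4, against a mean of 53.3% over all promoters. The Inhba model in the authors' table begins at 16014474, downstream of the RefSeq start, so the printed stretch belongs to the RefSeq start and not to that of the model counted.

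The untransfected libraries differed in relative depth from 0.609 to 1.36, where 1 is the first untreated EpH4 library, and the Pearson correlation between the libraries of a group on log2(FPKM + 1) was lowest in treated EpRas cells, at 0.912 against 0.957 to 0.982. In bulk RNA, fewer cells of a type and less RNA per cell cannot be told apart. Of the luminal epithelial markers, 6 of 6 reached 5 FPKM in every group, with summed levels of 1713 to 3729 FPKM, most of it Krt8 and Krt18. By limma, Cdh1, Cldn3 and Cldn7 were lower in untreated EpRas than in EpH4 cells (−0.96, −1.27 and −1.73, adjusted p = 0.00633, 0.0182 and 0.000437), as they were with TGF-β (−2.15, −1.58 and −2.00, adjusted p = 0.000114, 0.00580 and 0.000163) together with Epcam (−2.42, adjusted p = 0.00453). Krt8 and Krt18 did not share this fall. Their differences were 0.27 and 0.29 without TGF-β (limma adjusted p = 0.683 and 0.473) and −0.50 and 0.07 with it (adjusted p = 0.405 and 0.860). TGF-β raised Cdh1 in EpH4 cells (0.79, adjusted p = 0.0210). The sum of 7 mesenchymal markers was 23.7 to 27.6 FPKM in untreated EpH4 cells, 223 to 250 FPKM with TGF-β and 948 to 1195 FPKM over all EpRas libraries, and the sum of 3 basal epithelial markers was 334 to 395 FPKM and 789 to 855 FPKM in untreated and treated EpH4 cells and 62.2 to 116 FPKM in EpRas cells. The basal sum was almost all Krt14, at 327 and 386 FPKM in untreated and 851 and 784 FPKM in treated EpH4 cells. Trp63 went the other way there, from 7.37 and 8.60 to 4.64 and 5.52 FPKM (−0.56, limma adjusted p = 0.0856). Vim, at 915 to 1156 FPKM, made up most of the mesenchymal sum in EpRas cells, and Col1a1, at 224 and 200 FPKM, most of it in treated EpH4 cells. Col1a1 and Col1a2 went the other way from the mesenchymal sum between the lines, while Col3a1 stayed at or under 0.220 FPKM. Without TGF-β, Col1a1 stood at 1.80 and 1.57 FPKM in EpRas against 18.7 and 21.25 FPKM in EpH4 cells. Col1a2 stood at 0.735 and 0.638 against 2.38 and 3.53 FPKM. With TGF-β, Col1a1 was at 1.59 and 2.78 against 224 and 200 FPKM. Col1a2 was then at 0.120 and 0.413 against 13.2 and 12.3 FPKM. Both genes reached 5 FPKM in EpH4 libraries alone, so these differences between the lines are given without a test. Pdgfrb was lower in EpRas cells with TGF-β as well (−0.66, limma adjusted p = 0.0395). Without TGF-β it was higher there, at 7.14 and 8.11 against 0.915 and 0.988 FPKM. Among these epithelial, mesenchymal and basal markers were genes that moved with the groups, and their part in the members' differences was not tested. The 4 endothelial and 3 adipocyte markers summed to at most 0.481 FPKM, with Pecam1, Tek, Plin1 and Lep at 0, and the 4 immune markers to at most 7.13 FPKM, with Ptprc at 0.

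In the untransfected cells, 8 of the 10 members reached 5 FPKM in at least 1 library and entered the fit (limma on log2(FPKM + 1), Benjamini-Hochberg adjustment over 9100 genes, called at an adjusted p under 0.05). Of these, Fst was not tested in any comparison, and Gdf5 was tested for TGF-β in EpH4 cells only. Fstl1 and Fstl3 did not reach it. With TGF-β, 3 of 7 members tested changed in EpH4 cells, against 9.4% of all genes called. Inhba was the 1 that rose, against 6.48% of all genes, and Bmp4 and Id2 were the 2 that fell, against 2.91%. In EpRas cells 4 of 6 members tested changed, against 3.82% of all genes. Inhba rose, against 1.9% of all genes, and Bmp4, Id1 and Id2 fell, against 1.92%. Bmp4 reached 5 FPKM in untreated libraries only, and so did Id2 within EpRas cells. Bmp4 in both lines and Id2 in EpRas cells were called without a filter as well. Nothing is read from the counts with TGF-β that hold these calls. Without TGF-β, Id2 was lower in EpRas than in EpH4 cells, 1 of 6 members tested against 9.11% of all genes called lower, and 0 members were called higher against 8.45% (1 member, Inhba, was higher at an unadjusted p under 0.05 in limma), which makes 1 of 6 against 17.6% in either direction. With TGF-β, 5 of 6 members differed between the lines, against 21.3% of all genes, namely Inhba and Bmp4 higher in EpRas cells (8.92% of all genes) and Id1, Id2 and Id3 lower (12.3%). Of the members that differed between the treated lines, Bmp4 reached 5 FPKM in none of the treated libraries and Id2 in those of EpH4 cells alone. Nothing is therefore read from that count. The 4 comparisons share libraries with each other and are not independent.

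**Figure D1:**
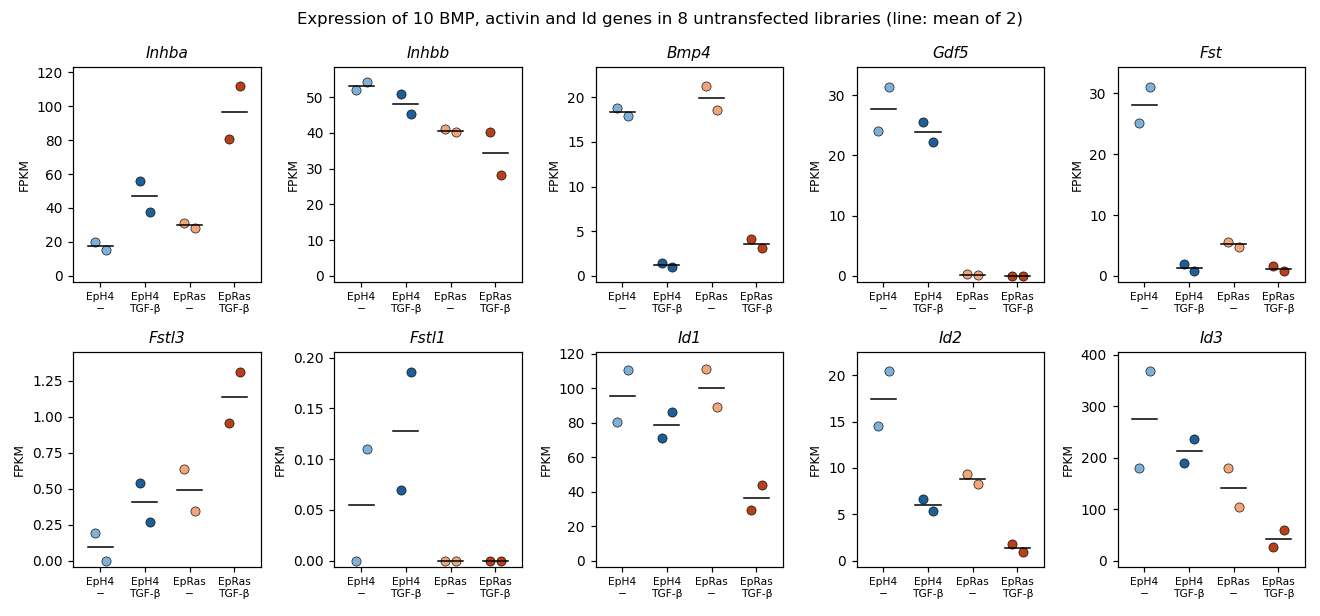
Expression (FPKM, linear axes from 0) of the 10 members in the 8 untransfected libraries, with 1 point per library, the mean of the 2 libraries of a group as a line, and a dash for untreated cells. Inhba rises from left to right within each line, Bmp4 and Fst drop with TGF-β, Gdf5 is near 0 in EpRas cells, and Fstl1 and Fstl3 reach at most 1.31 FPKM.

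**Figure D2:**
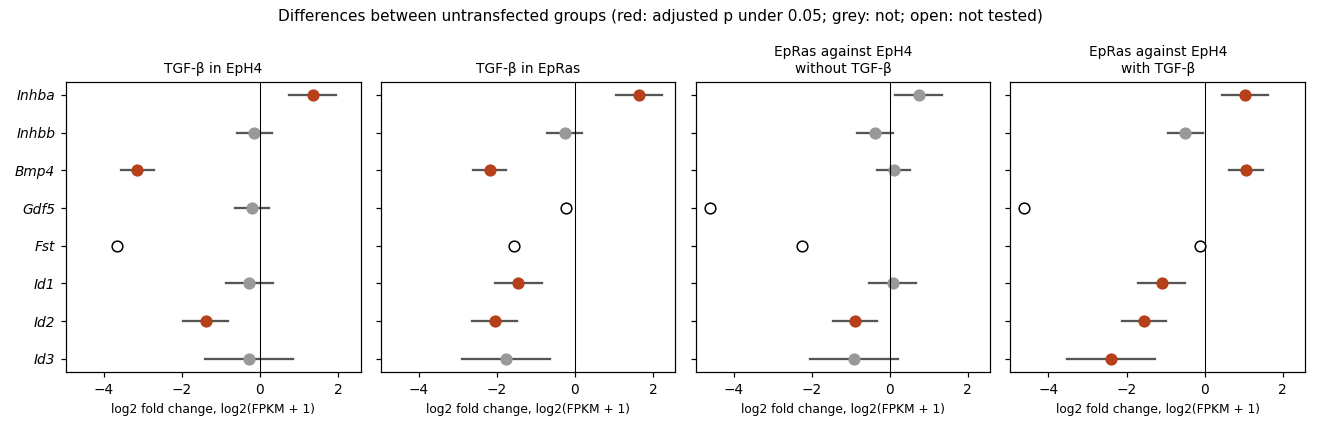
Log2 fold changes on the log2(FPKM + 1) scale with 95% intervals from limma for the 8 members that passed the filter, in 4 comparisons. Red points have an adjusted p under 0.05, grey points do not, and open points (Fst in the 4 comparisons, Gdf5 between lines and with TGF-β in EpRas cells) were not tested.

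Inhba encodes the activin βA subunit, which forms activin A as a homodimer. It lies on chromosome 13 from 16011851 to 16031621 on the plus strand (GENCODE, mm10), where the antisense genes B230303A05Rik and Gm48444 overlap it. Its level was 19.9 and 15.3 FPKM in the untreated EpH4 libraries, 56.2 and 37.7 FPKM with TGF-β, 31.4 and 28.4 FPKM in untreated EpRas cells and 80.6 and 112 FPKM in treated EpRas cells. The 4 groups did not overlap, and the order from low to high was untreated EpH4, untreated EpRas, EpH4 with TGF-β and EpRas with TGF-β. These levels stood for 149 to 583 reads per library. TGF-β raised Inhba 2.67-fold in EpH4 cells (log2 fold change 1.35, standard error 0.25, limma adjusted p = 0.0184) and 3.22-fold in EpRas cells (1.64, standard error 0.25, adjusted p = 0.0153), and the effects were not shown to differ (difference 0.29, 95% interval −0.55 to 1.13, adjusted p = 0.809). With TGF-β, Inhba was 2.05-fold higher in EpRas than in EpH4 cells (1.03, adjusted p = 0.0266), and without it 1.70-fold (0.74, adjusted p = 0.0889). With limma and without single libraries, the adjusted p of the rise in EpH4 cells was 0.0566 and 0.116 without untreated replicate 1 or 2 and 0.151 without TGF-β replicate 1, that of the rise in EpRas cells 0.0995 and 0.116 without untreated replicate 1 or 2 and 0.0584 without TGF-β replicate 2, and that of the line difference 0.171 without EpH4 TGF-β replicate 2 and 0.092 without EpRas TGF-β replicate 2.

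Inhbb encodes the βB subunit of activin B and lies on chromosome 1 from 119415465 to 119422248 on the minus strand. Its level was 52.0 and 54.3 FPKM in untreated EpH4 cells, 51.0 and 45.3 FPKM with TGF-β, 41.2 and 40.1 FPKM in untreated EpRas cells and 40.3 and 28.3 FPKM in treated EpRas cells. All 4 EpH4 libraries lay above all 4 EpRas libraries. No limma test called it. The change with TGF-β was −0.14 in EpH4 cells (95% interval −0.59 to 0.31, adjusted p = 0.710) and −0.26 in EpRas cells (−0.71 to 0.19, adjusted p = 0.597). Between the lines the log2 fold change was −0.38 without TGF-β (adjusted p = 0.224) and −0.50 with it (adjusted p = 0.110), and the latter was −0.74 with an adjusted p of 0.0250 without EpRas TGF-β replicate 1. On the FPKM scale and in the untransfected libraries, Inhbb was the more abundant of the 2 activin subunits in untreated cells of both lines. Inhba was the more abundant in EpRas cells with TGF-β, while in EpH4 cells with TGF-β their ranges overlapped.

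Bmp4 encodes a BMP ligand and lies on chromosome 14 from 46383520 to 46390669 on the minus strand, overlapped by the antisense genes Gm15217 and Gm15222. Untreated EpH4 cells held 18.8 and 17.9 FPKM and treated ones 1.45 and 0.973 FPKM. Untreated EpRas cells held 21.2 and 18.5 FPKM and treated ones 4.10 and 3.13 FPKM. The treated libraries lay far below the untreated ones in both lines, with 198 and 256 reads against 11 and 11 in EpH4 cells and 136 and 221 against 37 and 22 in EpRas cells. The mean level was 15.2-fold lower with TGF-β in EpH4 cells (log2 fold change −3.14, standard error 0.18, limma adjusted p = 0.000166) and 5.50-fold lower in EpRas cells (−2.18, standard error 0.18, adjusted p = 0.00126). Both changes stayed past the threshold in each of the 16 alternatives tried, with adjusted p from 0.000133 to 0.00585 in EpH4 cells and from 0.000955 to 0.0403 in EpRas cells. Untreated EpRas and EpH4 cells differed by 0.10 (95% interval −0.32 to 0.53, adjusted p = 0.740). Treated EpRas cells had 2.99-fold more Bmp4 than treated EpH4 cells (1.06, standard error 0.18, adjusted p = 0.00609), which became 0.91 with an adjusted p of 0.0612 without EpH4 TGF-β replicate 2. The difference between the effects was 0.96 (unadjusted p = 0.00693) and did not pass the adjustment (limma adjusted p = 0.224).

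Gdf5 encodes a BMP-like ligand best known from joint formation, and lies on chromosome 2 from 155941023 to 155945367 on the minus strand, overlapped by the antisense gene Gm15557. Its level was 24.0 and 31.4 FPKM in untreated and 25.5 and 22.2 FPKM in treated EpH4 cells. In EpRas cells it was 0.264 and 0.0711 FPKM without TGF-β, and it was listed at 0 in both treated libraries. These levels stood for 826 reads over the untreated EpH4 libraries against 3 over the untreated EpRas libraries, a 204-fold higher level in EpH4 cells when the reads of a group are pooled and scaled to depth, with an exact 95% interval from 69.4 to 989 for counting error only. The ratio of the mean FPKM was 165. With TGF-β there were 524 against 0 reads, and the level from pooled reads was at least 148-fold higher in EpH4 cells when 3 reads over the EpRas group are taken as the limit. Since this pattern chose the gene, it was not tested. The change of Gdf5 with TGF-β within EpH4 cells, which did not enter the choice, was −0.20 (95% interval −0.63 to 0.23, limma adjusted p = 0.567).

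Fst encodes follistatin, the secreted antagonist that binds activin and, more weakly, some BMPs. It lies on chromosome 13 from 114452290 to 114458951 on the minus strand, overlapped by the antisense gene Gm47040. Its level was 25.2 and 31.1 FPKM in untreated EpH4 cells, 1.88 and 0.817 FPKM with TGF-β, 5.63 and 4.71 FPKM in untreated EpRas cells and 1.58 and 0.717 FPKM in treated EpRas cells. The fall with TGF-β, which chose the gene, was 20.9-fold in EpH4 cells and 4.50-fold in EpRas cells, from 316 and 529 to 17 and 11 reads and from 43 and 67 to 17 and 6 reads. In untreated cells the level was 5.44-fold lower in EpRas than in EpH4 cells (log2 fold change −2.24), and these groups did not overlap. This is a description, since the untreated libraries are the ones that chose the gene. The treated groups overlapped, with a difference of −0.12 on the log2 scale, and the sign of this difference turned when a single library was left out, to 0.21 without EpH4 TGF-β replicate 1 and to 0.17 without EpRas TGF-β replicate 2.

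Since Fst protein neutralizes activin, the ratio of Inhba to Fst FPKM was computed in each library as a description. It was 0.789 and 0.493 in untreated EpH4 cells and 29.9 and 46.2 with TGF-β. In EpRas cells it was 5.57 and 6.03 without and 51.0 and 156 with TGF-β. Untreated EpH4 cells were the group in which Fst exceeded Inhba, and the untreated EpRas libraries lay between the untreated and the treated EpH4 libraries. Part of this order was fixed by the choice of Fst for its fall with TGF-β. The ratios with TGF-β rest on few Fst reads, 17 and 11 in EpH4 and 17 and 6 in EpRas cells, and are imprecise.

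**Figure D3:**
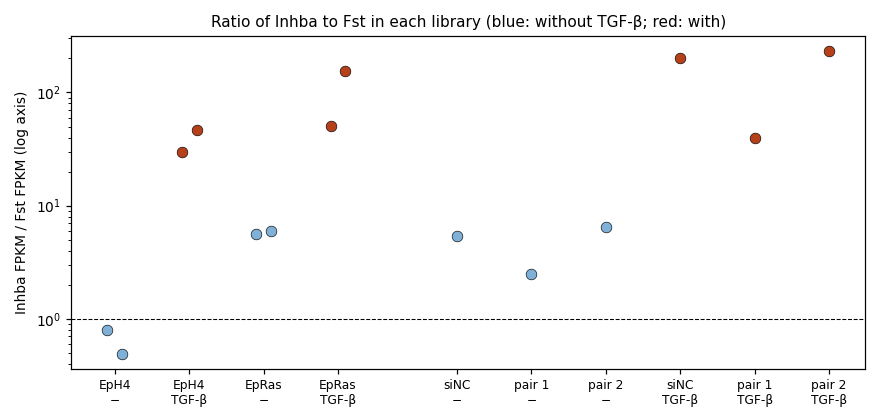
Ratio of Inhba to Fst FPKM in each of the 14 libraries on a log axis, with a dash for untreated cells and a dashed line at equal levels. The 2 untreated EpH4 libraries lie under the line, and every library with TGF-β lies at 29.9 or above. The ratios with TGF-β rest on as few as 6 reads of Fst.

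Fstl3 encodes a follistatin-like activin antagonist and was listed at 0.194 and 0 FPKM in untreated EpH4 cells, 0.539 and 0.272 FPKM with TGF-β, 0.638 and 0.343 FPKM in untreated EpRas cells and 0.958 and 1.31 FPKM in treated EpRas cells. The intervals from Cuffdiff ran from 0 up to 28.2 to 88.9 FPKM, apart from the library at 0, and overlapped, so no order is read from these values. The gene lies on chromosome 10 from 79777272 to 79782630, but the authors' table gives it a merged locus from 79697304 to 80369637 that holds other genes, among them the overlapping antisense gene Prss57, so these levels are uncertain. Fstl1, a secreted glycoprotein of the same family that is abundant in mesenchymal cells, lies on chromosome 16 from 37776873 to 37836514. It was represented by 0 and 3 reads in untreated and by 1 and 4 reads in treated EpH4 cells, at most 0.186 FPKM. In EpRas cells it had 0 reads in all 4 libraries, which allows up to 0.0860 FPKM without and 0.0983 FPKM with TGF-β when 3 reads over the group are taken as the limit.

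Id1 lies on chromosome 2 from 152736251 to 152737410 on the plus strand. Its level was 80.6 and 111 FPKM in untreated EpH4 cells, 71.2 and 86.0 FPKM with TGF-β, 111 and 89.4 FPKM in untreated EpRas cells and 29.4 and 43.9 FPKM in treated EpRas cells. Both treated EpRas libraries stood below all others, and the 2 untreated groups overlapped. Id1 was 2.74-fold lower with TGF-β in EpRas cells (log2 fold change −1.45, standard error 0.25, limma adjusted p = 0.0255), whereas in EpH4 cells the change was −0.27 (95% interval −0.87 to 0.33, adjusted p = 0.581). The difference between these effects, −1.18 with an unadjusted p of 0.0129, did not pass the adjustment (limma adjusted p = 0.287). With TGF-β, EpRas cells had 2.15-fold less Id1 than EpH4 cells (−1.10, adjusted p = 0.0211), and without it the difference was 0.08 (adjusted p = 0.869), which was −0.15 without EpH4 untreated replicate 1 and −0.08 without EpRas untreated replicate 1. The fall in EpRas cells was called in 9 of 16 alternatives, and with limma its adjusted p was 0.0642 without either EpH4 TGF-β library, 0.192 and 0.0995 without untreated EpRas replicate 1 or 2, and 0.102 without EpRas TGF-β replicate 1. The line difference with TGF-β had an adjusted p of 0.0775 and 0.139 without EpH4 TGF-β replicate 1 or 2 and of 0.0890 without EpRas TGF-β replicate 1.

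Id2 lies on chromosome 12 from 25093799 to 25097140 on the minus strand and was the least abundant of the 3 Id members on the FPKM scale. Its level was 14.5 and 20.4 FPKM in untreated EpH4 cells, 6.61 and 5.33 FPKM with TGF-β, 9.40 and 8.28 FPKM in untreated EpRas cells and 1.85 and 0.954 FPKM in treated EpRas cells. The 4 groups did not overlap, and their order was the reverse of that of Inhba. TGF-β lowered Id2 2.92-fold in EpH4 cells (log2 fold change −1.39, standard error 0.24, limma adjusted p = 0.0142) and 6.30-fold in EpRas cells (−2.06, standard error 0.24, adjusted p = 0.00478), where the treated libraries held 10 and 4 reads. EpRas cells had 1.97-fold less Id2 than EpH4 cells without TGF-β (−0.89, adjusted p = 0.0455) and 4.25-fold less with it (−1.56, adjusted p = 0.00436). In treated EpRas cells Id2 lay under 5 FPKM, and both calls that rest on these libraries held without a filter as well. The call without TGF-β held in 5 of 15 alternatives. With limma it was lost when any 1 of the libraries outside the treated EpRas group was left out, with adjusted p from 0.0602 without EpH4 untreated replicate 1 to 0.215 without replicate 2. The fall in EpH4 cells had an adjusted p of 0.0921 without untreated replicate 2 and of 0.0791 and 0.122 without TGF-β replicate 1 or 2, and the fall in EpRas cells one of 0.0542 without untreated replicate 1.

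Id3 lies on chromosome 4 from 136143497 to 136145755 on the plus strand and was the most abundant of the Id members in the EpH4 libraries. Its level was 181 and 369 FPKM in untreated EpH4 cells, 190 and 236 FPKM with TGF-β, 180 and 104 FPKM in untreated EpRas cells and 25.9 and 60.1 FPKM in treated EpRas cells. Both treated EpRas libraries lay below all others, but the replicates of untreated EpH4 and of treated EpRas cells were far apart. TGF-β changed Id3 by −1.76 in EpRas cells (95% interval −2.90 to −0.63), with an unadjusted p of 0.00764 that did not pass the adjustment (limma adjusted p = 0.117). In EpH4 cells the change was −0.29 (95% interval −1.42 to 0.85, adjusted p = 0.770) and became 0.23 without untreated replicate 2. With TGF-β, Id3 was 4.96-fold lower in EpRas than in EpH4 cells (log2 fold change −2.39, standard error 0.48, limma adjusted p = 0.0121), and this had an adjusted p of 0.0632 and 0.0856 without EpH4 TGF-β replicate 1 or 2 and of 0.0644 without EpRas TGF-β replicate 1. Without TGF-β the difference was −0.92 (adjusted p = 0.239). The limma test of the difference between the TGF-β effects called 0 of 6 members, against 0.802% of all genes (0.176% higher and 0.626% lower), and 2 members, Id1 and Bmp4, had an unadjusted p under 0.05. For Id3 that difference was −1.48 (95% interval −3.08 to 0.13, adjusted p = 0.492) and for Id2 −0.67 (−1.48 to 0.14, adjusted p = 0.548).

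The limma test took its spread from all 8 untransfected libraries. When the limma fit held the compared groups alone, the adjusted p was 0.0534 for the rise of Inhba in EpH4 cells and 0.0852 in EpRas cells, 0.153 for the fall of Id1 and 0.067 for that of Id2 in EpRas cells, 0.0653 for Id2 between the untreated lines, and 0.0531 for Id1 and 0.0781 for Inhba between the treated lines. The falls of Bmp4 in both lines and of Id2 in EpH4 cells and the differences of Id2, Id3 and Bmp4 between the treated lines stayed called in that fit.

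The other genes of the pathway were followed through lists written with earlier results known. Of 26 other ligands, 10 were listed at 0 in every untransfected library and 2 were tested. Bmp7, a BMP ligand, ranged from 0.640 to 1.26 FPKM over the EpH4 libraries and stood at 13.8 and 15.3 FPKM in untreated and 23.8 and 22.8 FPKM in treated EpRas cells. The 2 lines did not overlap. Bmp7 passed the filter through its EpRas libraries alone, so its difference between the lines is given without a test. The other tested ligand, Gdf11, was called by limma in 0 comparisons and had an unadjusted p under 0.05 in 0.

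Of 17 receptors and co-receptors, 7 were tested. TGF-β raised Acvr1, a BMP and activin type I receptor, in both lines (1.05, limma adjusted p = 0.0134, in EpH4 and 1.09, adjusted p = 0.0202, in EpRas cells), and in EpH4 cells also Eng, the co-receptor endoglin (1.14, adjusted p = 0.0371). Bmpr2 was called in EpH4 cells too (0.91, limma adjusted p = 0.0191). It reached 5 FPKM in treated libraries only, at 6.78 and 7.87 FPKM in EpH4 cells against 3.35 and 3.49 FPKM without TGF-β. With Bmpr2, 3 of 7 were called higher in EpH4 cells, against 6.48% of all genes, so nothing is read from its call or from this count. In EpRas cells 1 of 7 was called higher, against 1.9%, and in both lines 0 were called lower, against 2.91% and 1.92%. The list medians were 0.34 and −0.01, against −0.02 over all genes in each line. Eng was lower in EpRas than in EpH4 cells, with log2 fold changes of −1.97 without and −3.12 with TGF-β (adjusted p = 0.00278 and 0.000236), at 9.83 to 15.5 FPKM against 45.2 to 116 FPKM. In all, 2 of 7 receptors were higher (Acvr1 and Rgmb) and 3 lower (Eng, Acvr1b and Rgma) in EpRas cells without TGF-β, against 8.45% and 9.11% of all genes. With TGF-β 1 was higher (Acvr1) and 3 were lower (Eng, Acvr1b and Rgma), against 8.92% and 12.3%. Acvr1b and Rgma, at 3.10 to 3.86 FPKM and 2.40 to 3.33 FPKM in EpRas cells, passed the filter through EpH4 libraries alone. Rgmb reached 5 FPKM in untreated EpRas cells, at 6.44 and 10.0 FPKM, but not in untreated EpH4 cells, at 3.99 and 3.92 FPKM. Nothing is read from the calls of Acvr1b, Rgma and Rgmb or from the counts that hold them. Acvr1 and Eng reached 5 FPKM in every untransfected library.

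Among 19 extracellular antagonists and modulators, 6 were tested. Grem1, the BMP antagonist gremlin, was listed at 0 in all 4 EpH4 libraries, at 11.1 and 7.32 FPKM in untreated EpRas cells and at 25.7 and 46.0 FPKM with TGF-β. Its rise with TGF-β in EpRas cells was called (log2 fold change 1.82, standard error 0.29, limma adjusted p = 0.0164). That is 1 of 6 genes, against 3.82% of all genes called in either direction. Crim1 and Bmper fell at an unadjusted p under 0.05 but were not called (−0.79 and −0.83, limma adjusted p = 0.0509 and 0.0596). Bmper, another BMP-binding protein, ranged from 4.99 to 8.74 FPKM in EpH4 cells and from 1.55 to 3.81 FPKM in EpRas cells. Grem1 passed the filter through EpRas libraries alone and Bmper through EpH4 libraries alone, so the differences of both between the lines are given without a test. Of the other 4 genes, Nbl1 was lower in EpRas cells with TGF-β (−1.36, adjusted p = 0.0281), against 12.3% of all genes, and limma called 0 without TGF-β, against 17.6% in either direction, where Nbl1 was the 1 with an unadjusted p under 0.05. In EpH4 cells limma called 0 genes of this list with TGF-β, against 9.4% of all genes, and 1 gene, Twsg1, had an unadjusted p under 0.05.

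Of 12 Smads and Smad inhibitors, 11 were tested. In EpH4 cells TGF-β raised the feedback inhibitors Smad7 (1.39, limma adjusted p = 0.00578), Skil (1.03, adjusted p = 0.0129) and Ski (0.69, adjusted p = 0.0343), and in EpRas cells Skil (0.84, adjusted p = 0.0472). These were 3 of 11 genes against 6.48% of all genes called higher, and 1 of 11 against 1.9%. The list medians were 0.43 and 0.21, against −0.02 over all genes in each line. Smad6, the inhibitor that acts on the BMP branch, stood with TGF-β at 2.65 and 4.06 FPKM in EpRas against 9.12 and 8.76 FPKM in EpH4 cells. It was called, but of these libraries those of EpH4 alone reached 5 FPKM, so nothing is read from the call. The ubiquitin ligase Smurf1 was lower in EpRas than in EpH4 cells in both conditions (−0.94, adjusted p = 0.00692, and −1.53, adjusted p = 0.000556). That is 1 of 11 lower without TGF-β, against 9.11% of all genes. With TGF-β 2 of 11 were called lower, against 12.3%, but Smad6 is 1 of them, so nothing is read from that count. Ski was the 1 gene of this list called higher in EpRas cells, without TGF-β (0.70, adjusted p = 0.0205), against 8.45% of all genes. Of 7 other BMP target genes Msx2 was the 1 that passed the filter. By limma it was lower with TGF-β in EpH4 cells (−0.65, adjusted p = 0.0402), against 2.91% of all genes, and in untreated EpRas against EpH4 cells (−0.96, adjusted p = 0.00598), against 9.11%. Of 3 E proteins, 2 were tested and limma called 0 of them in any comparison, against 0.802% to 21.3% of all genes. None had an unadjusted p under 0.05, and the list medians ran from −0.25 to 0.16. Nothing is read from this count of 2 genes.

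Genes of these lists that reached 5 FPKM in at least 1 library of both groups compared made 18 calls, of which 5 held in every alternative, namely those of Eng and Smurf1 between the lines without and with TGF-β and of Msx2 between the untreated lines. The other 13 were lost in at least 1 alternative, with 0 changes of sign. The call of Skil in EpRas cells held in 3 of 16 alternatives (limma adjusted p up to 0.273) and that of Eng in EpH4 cells in 7 of 16 (up to 0.207), whereas that of Smad7 in EpH4 cells held in 15 of 16 (up to 0.0712).

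Genes with the most similar pattern over the 8 untransfected libraries (Pearson r on the log2 scale, among 4028 genes with a range of at least 1, as a description over libraries that fall in 4 groups) were Rbm47 (r = 0.991), Ampd3 and Afap1l2 for Id2, Eps8 (0.991), Spg20 and Rhpn2 for Bmp4, Prdx5 (0.988), Efnb1 and Ypel3 for Inhba, and Sorbs2 (0.987) and Adm for Fst. For Id1 they were 2010107H07Rik (0.980), Arhgef10l and Acot13, for Id3 Prss8 (0.984), Baiap2 and Pi4k2a, and for Gdf5 Hs6st2 (0.999) and Tex101. Both genes named for Gdf5 were listed at 0 in all 4 EpRas libraries. Eps8, which encodes an actin-regulating substrate of receptor tyrosine kinases, went from 44.5 and 45.0 FPKM to 10.1 and 9.33 FPKM with TGF-β in EpH4 cells and from 52.1 and 57.4 FPKM to 21.0 and 17.4 FPKM in EpRas cells.

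In the siRNA-transfected EpRas cells the targeted genes were checked first. In the absence of TGF-β, Etv4 measured 57.4 FPKM in the siNC library and 11.6 and 27.9 FPKM in those of pairs 1 and 2. In its presence the values were 64.3 FPKM against 12.6 and 18.9 FPKM. Etv5 measured 8.85 FPKM against 1.61 and 1.26 FPKM in untreated and 5.34 FPKM against 1.24 and 1.20 FPKM in treated cells. Both genes were lower with each pair. There was 1 library per condition and no test was run on these libraries, so values are given with intervals for counting error only, and the ratios compare these libraries, not the conditions. A member was counted as changed by the knockdown where it differed at least 2-fold on the log2(FPKM + 1) scale with both pairs in the same direction. Both pairs are set against the same siNC library. Of the 10 members, 7 reached 5 FPKM in these libraries.

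**Figure D4:**
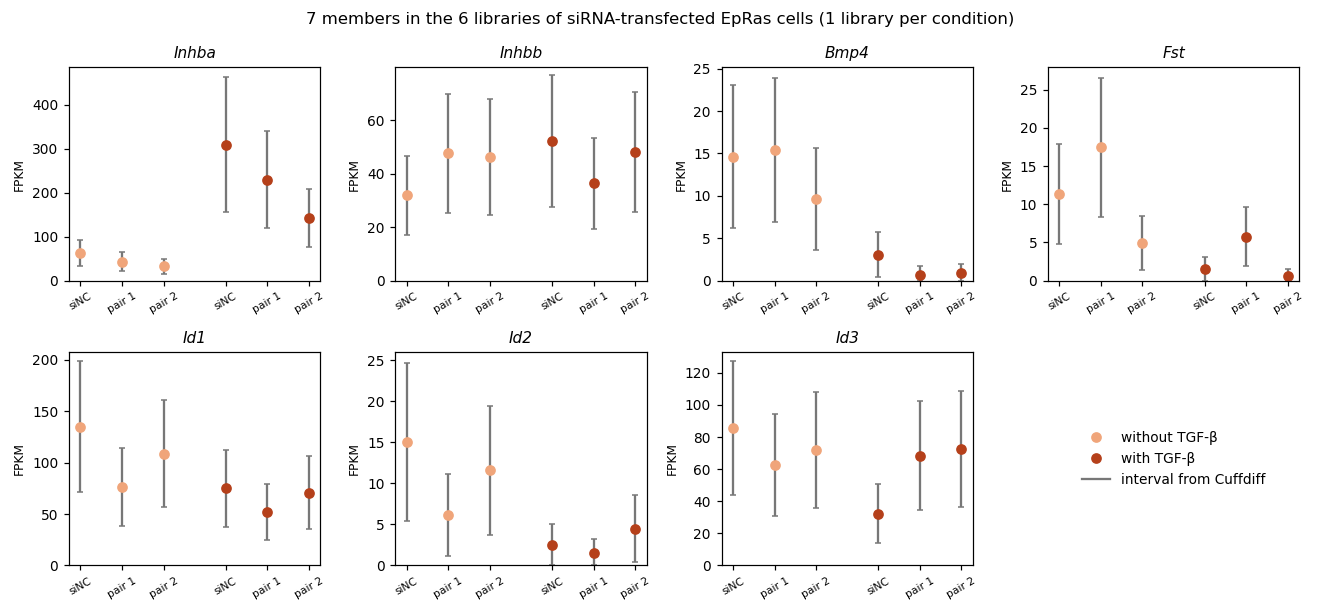
Expression (FPKM, linear axes from 0) of 7 members in the 6 libraries of siRNA-transfected EpRas cells, with 1 point per library and the interval that Cuffdiff gives for it. Inhba is highest with siNC and TGF-β, at 309 FPKM, and Id3 with TGF-β stands at 68.4 and 72.3 FPKM with the pairs against 32.3 FPKM with siNC.

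Without TGF-β the siNC library held 61.7 FPKM of Inhba and the libraries of pairs 1 and 2 held 43.2 and 32.2 FPKM. TGF-β brought these to 309 FPKM with siNC and 229 and 142 FPKM with the pairs. The levels with the pairs were below siNC in each condition. They were 70.0% (95% exact interval 62.4 to 78.6%) and 52.2% (45.9 to 59.2%) of siNC without TGF-β, and 74.3% (71.0 to 77.6%) and 45.8% (43.4 to 48.4%) with it. Pair 2 alone passed 2-fold, with TGF-β, so Inhba was not counted as changed. TGF-β raised Inhba in each siRNA condition, 5.00-fold with siNC (4.60 to 5.45), 5.31-fold with pair 1 (4.86 to 5.81) and 4.40-fold with pair 2 (3.94 to 4.91). It was the 1 member at least 2-fold higher with TGF-β with siNC (3.23% of all genes), with pair 1 (3.67%), with pair 2 (4.08%) and in all 3 siRNA conditions (1.34%).

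The untreated libraries of siNC, pair 1 and pair 2 held 14.6, 15.4 and 9.62 FPKM of Bmp4, and the treated ones 3.06, 0.708 and 0.850 FPKM. With TGF-β the siNC library held 71 reads, and the libraries of the pairs held 13 and 14. These were 23.1% (95% exact interval 11.7 to 42.1%) and 27.8% (14.4 to 49.7%) of siNC, and Bmp4 was the 1 member counted as lower with the knockdown in the presence of TGF-β, against 2.49% of all genes. Without TGF-β the levels were 105% (87.4 to 127%) and 65.7% (53.0 to 81.3%) of siNC, and the knockdown count held 0 members in either direction, against 1.54% of all genes higher and 2.49% lower. Within the siRNA conditions, the level with TGF-β was 4.78-fold lower with siNC, 21.8-fold lower with pair 1 and 11.3-fold lower with pair 2. Bmp4, Id2 and Fst were at least 2-fold lower with TGF-β in all 3 conditions (0.671% of all genes), and they were the 3 members lower with pair 1 (3.25%) and with pair 2 (3.21%), while with siNC Id3 was the fourth (2.51%). Of these genes, Bmp4 and Id2 reached 5 FPKM in the siRNA libraries without TGF-β only, and Fst was chosen for this fall. Nothing is therefore read from these counts of lower members, nor from the knockdown count with TGF-β that holds Bmp4.

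Untreated cells had 85.6 FPKM of Id3 with siNC and 62.8 and 71.9 FPKM with pairs 1 and 2. Treated cells had 32.3 FPKM with siNC and 68.4 and 72.3 FPKM with the pairs. The siNC library with TGF-β was the lowest of the 6. Id3 was thus 2.65-fold lower with TGF-β with siNC, while with pairs 1 and 2 the levels with TGF-β were 1.09 and 1.00 times those without. The levels with the pairs were 212% and 224% of siNC with TGF-β, and Id3 was the 1 member counted as higher with the knockdown, against 1.33% of all genes. With a pseudocount of 5 FPKM in place of 1, neither Id3 nor Bmp4 passed 2-fold with both pairs. Whole reads could not be recovered for Id3, and the intervals from Cuffdiff, 13.8 to 50.8 FPKM with siNC and 34.3 to 103 FPKM and 36.1 to 108 FPKM with the pairs, overlapped.

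In the order siNC, pair 1 and pair 2, the Id1 level was 135, 76.3 and 109 FPKM in untreated and 75.2, 51.7 and 70.6 FPKM in treated cells. Each library with TGF-β lay below the library of the same siRNA without it, with ratios of 0.558 for siNC, 0.678 for pair 1 and 0.649 for pair 2. The Id2 level was 15.1, 6.11 and 11.6 FPKM in untreated and 2.46, 1.46 and 4.47 FPKM in treated cells. The pairs did not move Id2 alike in the presence of TGF-β, at 59.4% (95% exact interval 30.6 to 111%) of siNC with pair 1 and 182% (114 to 294%) with pair 2, from 16 and 44 against 34 reads. The ratio of treated to untreated Id2 was 0.163 with siNC, 0.239 with pair 1 and 0.387 with pair 2.

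Fst differed between the pairs in direction. Its levels in the order siNC, pair 1 and pair 2 were 11.3, 17.4 and 4.96 FPKM in untreated and 1.52, 5.76 and 0.612 FPKM in treated cells. Pair 1 stood above siNC in each condition, at 154% (95% exact interval 128 to 185%) and 379% (265 to 550%), and pair 2 below it, at 43.7% (33.9 to 56.1%) and 40.2% (19.3 to 77.8%). The ratio of Inhba to Fst was 5.44, 2.48 and 6.50 without TGF-β and 203, 39.8 and 232 with it, lowest with pair 1 in each condition. With TGF-β these ratios rest on 42, 126 and 12 reads of Fst. Inhbb lay between 31.9 and 52.3 FPKM over the 6 libraries, with overlapping intervals from Cuffdiff. Without TGF-β it lay below Inhba with siNC, at 31.9 against 61.7 FPKM. With pairs 1 and 2 it lay above Inhba, at 47.7 and 46.2 against 43.2 and 32.2 FPKM. Fstl3 was listed at or under 0.863 FPKM, with Cuffdiff intervals from 0 up to 18.8 to 48.4 FPKM, Fstl1 was listed at 0 in all 6 libraries, and Gdf5 held 0 to 3 reads per library.

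Of the other pathway genes in the siRNA libraries, Grem1 was the 1 of 5 antagonists at least 2-fold lower with both pairs without TGF-β, at 2.27 and 5.59 FPKM against 27.0 FPKM with siNC (2.49% of all genes), and with TGF-β it was at 11.6 and 30.3 against 41.3 FPKM. Smad6 was listed without TGF-β at 4.40 and 5.50 FPKM with the pairs against 0.972 FPKM with siNC, and with TGF-β at 2.50 and 6.17 against 1.48 FPKM. It was the 1 gene of the Smad list counted as changed, higher without TGF-β (1.54% of all genes), but it passed the filter through the libraries of pair 2 alone, so nothing is read from that count. Of the lists of other ligands, receptors, BMP targets and E proteins, 0 genes were counted as changed by the knockdown in either condition, against 1.54% of all genes higher and 2.49% lower without TGF-β and 1.33% and 2.49% with it.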

How the data were processed

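Per the study's methods and the submitters' processing notes, mRNA was sequenced directionally on the Ion Proton, and reads were aligned to mm10 with TopHat2 2.0.11 and quantified with Cuffdiff (Cufflinks 2.2.0). Whether counting used the strand is not given in the sources used here, so reads of a gene and an antisense partner may be mixed. The FPKM of each library, deposited by the authors in 2 tables from separate Cuffdiff runs, were used as they stand, with the Cuffdiff intervals where named, and 0 per-sample columns were left unused. Genes without an OK status (3 and 2) were left out. A change in a few abundant genes shifts the FPKM of all others. The medians of the untransfected libraries differed by at most 0.0227 on the log2 scale from their common value.

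Genes reaching 5 FPKM in at least 1 library were kept, 9100 in the untransfected and 9094 in the siRNA table. The main test was limma 3.58.1 (R 4.3.3) on log2(FPKM + 1), two-sided, with 1 mean per group over the 8 untransfected libraries and Benjamini-Hochberg adjustment over all genes tested. Fold changes in log2 are on that scale, which understates changes of low genes, and folds without log2 are ratios of mean FPKM. On simulated data for the comparison of TGF-β in EpRas cells with 9100 genes, 43 of 100 genes changed by 1 and 92 of 100 changed by 2 on the log2 scale were recovered with 7 false calls, and for TGF-β in EpH4 cells with no change there were 0 false calls. The simulation gave each gene 1 spread in all groups. In the data the spread was greatest in treated EpRas cells, with a median standard deviation of 0.214 against 0.0914 to 0.147 on the log2 scale. These figures hold for the simulated setting only. Since 1 read adds a fixed step to the FPKM of a gene in a library, reads were recovered from these steps, within a tolerance of 0.005 of a whole number for Id1, Id2, Inhba, Fst, Fstl1, Bmp4, Gdf5 and Etv5. Intervals on reads are exact 95% binomial intervals and cover counting error only, as do limits of 3 reads. Tables outside R were made with Python 3.11.15, numpy 2.4.6 and pandas 2.3.3, and figures with matplotlib 3.10.9.

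The members and gene lists were chosen with earlier results of these data known. All 10 members were described, and from each other list up to 3 called genes with the greatest change per comparison were named. Acvr1b, Rgma, Cldn3, Col1a2 and Pdgfrb were also named in comparisons where they fell outside this rule, after their values were seen. Up to 3 genes with the most similar pattern were named for each member, and some genes are not reported here. A test of Fst between the lines was planned, but is not given, since the libraries compared are those that chose the gene. Replicate numbers of different groups were checked for pairing by the correlation of their deviations. Alternatives were other pseudocounts, filters, scaling, variance models and fits, and leaving out each library.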

Additional observations from a re-analysis of the deposited data

How the results depend on the processing

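The number of members called was recomputed under each alternative. Between the lines without TGF-β, where 1 member, Id2, was called, 0 were called with a pseudocount of 0.1 FPKM, without a filter, when the fit held the compared groups alone, with the replicate block, and with a mean of at least 10 FPKM, a filter that Id2 did not pass. Between the lines with TGF-β 3 were called in place of 5, and with TGF-β in EpRas cells 1 in place of 4, when the fit held the compared groups alone. Leaving out 1 library gave 0 to 1 members between the lines without and 1 to 5 with TGF-β, 1 to 3 for TGF-β in EpH4 cells, 1 to 4 for TGF-β in EpRas cells and 0 for the difference between the effects. The replicate block changed no other count of members by over 1.5 times. Same-numbered libraries of different groups had correlations of deviations from −0.347 to 0.0785, so the numbers were not taken as pairs.

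In the siRNA libraries, a pseudocount of 5 FPKM left 0 members higher and 0 lower with the knockdown in the presence of TGF-β, and 1 lower with TGF-β with pair 2 and in all 3 siRNA conditions. A mean of at least 10 FPKM, which fewer members passed, left 0 lower with the knockdown in the presence of TGF-β, 1 lower with TGF-β with siNC, and 0 with pair 1, with pair 2 and in all 3 conditions.

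Leaving out 1 library turned the sign of 4 differences, none of them called. Id1 between the lines without TGF-β ranged from −0.15 to 0.30, Fst between the lines with TGF-β from −0.45 to 0.21, Id3 with TGF-β in EpH4 cells from −0.80 to 0.23, and the difference in the Inhbb effect from −0.37 to 0.13, and the cause was not tested. The signs turned without EpH4 untreated replicate 1 (−0.15) or EpRas untreated replicate 1 (−0.08) for Id1, without EpH4 TGF-β replicate 1 (0.21) or EpRas TGF-β replicate 2 (0.17) for Fst, and without EpRas TGF-β replicate 2 for Inhbb. Over all alternatives, 772 values of single members and counts over all genes kept their call and direction, 41 lost a call, 1 gained one, 6 turned sign and 73 moved. The number of genes called over the whole table ranged from 733 to 2245 and from 822 to 2755 between the lines without and with TGF-β, and from 239 to 1108 and from 45 to 413 for TGF-β in EpH4 and EpRas cells. With 2 libraries per group and 10 and 4 reads of Id2 or 11 and 11 of Bmp4 in treated libraries, the folds of these genes are imprecise.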
